A study of Mus musculus with 12 samples.

Results

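Kupffer cells are the resident macrophages of the liver, and the 10 genes described here mark them or macrophages in general. They were Clec4f, Vsig4, Cd5l, Timd4 and Marco (surface and secreted markers of resident Kupffer cells), Adgre1, Cd68 and Csf1r (macrophage lineage markers) and C1qa and C1qb (chains of complement C1q). They were taken by symbol from the array's annotation, which lists Adgre1 under its older name Emr1. All 10 were measured, each by 1 probe, among 17742 genes. Total RNA from mouse liver had been measured on 12 single-colour arrays in 3 groups. STZ+MENS mice had diabetes induced by streptozotocin (STZ, which destroys pancreatic beta cells) and received MENS, which the labels do not spell out. The MENS device powered a printed circuit board that gave it in sessions of 1 h, with 5 days of sessions each week for 6 weeks. STZ mice had the same diabetes without MENS, and control mice had no treatment. The labels give 8 weeks as the age of every mouse, and no strain or sex.

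Each group held 2 samples, measured on 2 arrays each, so n = 2 per group throughout and the 2 arrays of a sample count as 1 replicate. Samples are called 1 and 2 as in the labels, which do not say that each is 1 animal, so p-values measure the spread between these samples only. Across genes, r was 0.986 to 0.996 between both arrays of a sample and 0.976 to 0.988 between samples of a group. The number of samples, and of arrays, limits the precision. The tissue label was checked on hepatocyte genes: Alb, serum albumin, was at 471619 and 477802 in STZ+MENS, 517253 and 522631 in STZ, and 485802 and 511446 in control samples. Intensities are the deposited linear values, averaged over the 2 arrays of a sample, and no probe's level is set against another's. Sums over a marker list add linear intensities, so its brightest probes lead them. Differences are on the log2(intensity + 50) scale, with standard errors from limma.

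Kupffer cells line the liver sinusoids, where they clear particles, dying cells and complement-coated material from the blood. They depend on signals through the Csf1r receptor and are held in their state by transcription factors that include PU.1 (encoded by Spi1), Maf proteins, Nr1h3 and Id3. C1q is the recognition unit of the classical complement pathway and in liver is made largely by macrophages. In whole liver, fewer macrophages and less of an mRNA per macrophage cannot be told apart.

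Promoter windows from RefSeq (mouse build GRCm38.p6, 250 bases before to 50 after the gene start) were matched for 7 of the 10 genes, without Adgre1, Csf1r and C1qa. Windows on 1 chromosome, that of Csf1r, were left out of this match but kept in the counts over all RefSeq windows. The 4 below belong to the genes whose values the results turn on. Capitals mark the PU.1 core GAGGAA (reverse complement TTCCTC) and the Maf half-site TGCTGA (reverse complement TCAGCA), searched on both strands. No PU.1 match overlapped a Maf match in these 4.
Clec4f, chr6:83656067-83656366, minus strand: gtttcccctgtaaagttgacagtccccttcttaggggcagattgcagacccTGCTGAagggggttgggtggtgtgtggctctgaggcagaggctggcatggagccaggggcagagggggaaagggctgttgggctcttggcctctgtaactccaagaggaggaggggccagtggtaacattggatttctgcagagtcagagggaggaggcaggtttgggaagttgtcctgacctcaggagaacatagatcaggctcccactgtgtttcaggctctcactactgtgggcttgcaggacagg
Marco, chr1:120504975-120505274, minus strand: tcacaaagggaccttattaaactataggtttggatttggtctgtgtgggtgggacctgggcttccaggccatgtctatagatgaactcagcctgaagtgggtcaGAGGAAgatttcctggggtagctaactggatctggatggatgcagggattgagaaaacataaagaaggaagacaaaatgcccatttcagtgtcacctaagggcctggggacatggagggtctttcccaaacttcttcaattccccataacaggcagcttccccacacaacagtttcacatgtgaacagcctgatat
Cd5l, chr3:87357631-87357930, plus strand: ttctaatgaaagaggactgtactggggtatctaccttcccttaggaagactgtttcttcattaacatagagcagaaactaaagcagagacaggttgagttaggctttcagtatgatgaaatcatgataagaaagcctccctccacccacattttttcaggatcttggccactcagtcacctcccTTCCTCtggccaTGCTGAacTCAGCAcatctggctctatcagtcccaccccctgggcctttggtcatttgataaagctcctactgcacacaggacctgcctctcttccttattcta
C1qb, chr4:136886151-136886450, minus strand: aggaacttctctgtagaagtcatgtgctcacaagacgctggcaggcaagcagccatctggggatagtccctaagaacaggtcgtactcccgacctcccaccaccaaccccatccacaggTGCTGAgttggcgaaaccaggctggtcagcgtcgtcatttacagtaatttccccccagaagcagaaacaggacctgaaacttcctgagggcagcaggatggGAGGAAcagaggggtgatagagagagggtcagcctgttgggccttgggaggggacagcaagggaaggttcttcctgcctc
The PU.1 core was found in 5 of the 7 windows and in 28.3% of 32851 RefSeq windows of the same length. The Maf half-site was found in 5 of the 7, against 19.5% of all windows. Clec4f had 1 Maf half-site and 0 PU.1 cores, Marco 1 PU.1 core and 0 Maf half-sites, Cd5l 1 and 2, and C1qb 1 and 1. A match describes these letters and does not show binding.

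With limma's adjusted p over all genes, 0 of the 10 passed 0.05 in any of the 3 comparisons. Clec4f was highest and Adgre1 lowest in the STZ+MENS livers. Marco and Cd5l lay further apart between the STZ+MENS samples than between any groups. The 3 comparisons share samples and are not independent of each other.

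**Figure D1:**
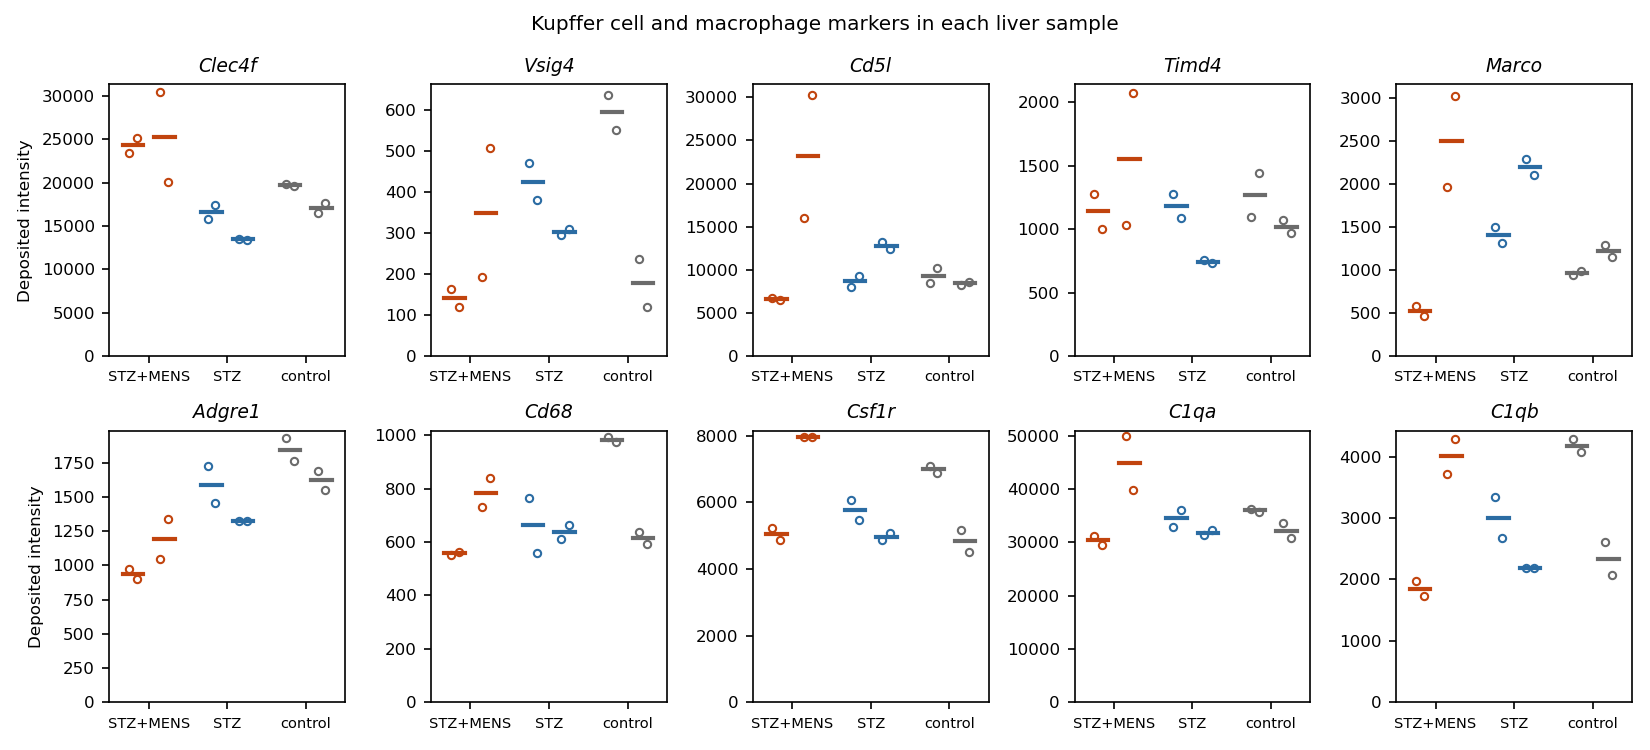
Deposited intensity (linear axis from 0) of the 10 markers in STZ+MENS, STZ and control livers. Open circles are single arrays and bars the mean of the 2 arrays of a sample, with sample 1 left of sample 2. For Clec4f both STZ+MENS samples lie above all others, and for Marco and Cd5l the STZ+MENS samples lie furthest apart.

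Clec4f is a C-type lectin that in mice is found almost only on Kupffer cells. Its intensity was 24306 and 25265 in STZ+MENS samples 1 and 2, 16575 and 13462 in STZ, and 19785 and 17118 in control. The STZ+MENS samples lay above both other groups, and both STZ samples lay below both controls. The 4 STZ+MENS arrays, at 20041 to 30489, also lay above the 4 STZ arrays, at 13436 to 17383, and the 4 control arrays, at 16558 to 19892. Clec4f was 1.64-fold higher in STZ+MENS than in STZ (log2 0.71 ± 0.16 SE, 95% interval 0.31 to 1.11), with limma adjusted p = 0.0778. It therefore did not pass over all genes. STZ+MENS against control differed by 0.41 ± 0.16 (limma adjusted p = 0.267), and STZ against control by -0.30 ± 0.16 (limma adjusted p = 0.420). The difference from STZ was 0.56 to 0.86 when single samples were left out. Its arrays within STZ+MENS sample 2 differed, at 30489 and 20041.

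Marco is a class A scavenger receptor that binds bacteria and particles. Its intensity was 519 and 2494 in STZ+MENS samples 1 and 2, 1402 and 2194 in STZ, and 965 and 1217 in control. STZ+MENS sample 1 was the lowest of the 6 samples and STZ+MENS sample 2 the highest, so this group spanned both others. The gap between them was 2.14 on the log2 scale, or 4.39-fold, and 99.7% of all genes had a smaller gap between these samples. The arrays kept this order, at 575 and 462 in sample 1 and at 1961 and 3027 in sample 2. STZ against control differed by 0.67 ± 0.65 (limma adjusted p = 0.654), although their samples did not overlap. The 4 STZ arrays, at 1310 to 2286, also lay above the 4 control arrays, at 944 to 1289. This standard error is shared by the 3 groups, so it takes in the gap between the STZ+MENS samples. In a fit of only STZ and control the difference was 0.67 ± 0.25, and it did not pass over all genes. STZ+MENS against STZ differed by -0.60 ± 0.65 (limma adjusted p = 0.602), with a 95% interval of -2.19 to 0.98. Without STZ+MENS sample 2 that difference was -1.67 with limma adjusted p = 0.034, in a fit where 1759 genes passed, and without STZ+MENS sample 1 it was 0.46. Such a fit holds 1 STZ+MENS sample, which is assumed to vary like the other groups, so that p takes no spread from STZ+MENS.

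Cd5l is a secreted protein of tissue macrophages, also called apoptosis inhibitor of macrophages. Its intensity was 6560 and 23166 in STZ+MENS, 8645 and 12788 in STZ, and 9314 and 8428 in control samples 1 and 2. STZ+MENS again held the lowest and the highest sample, with a gap of 1.74 (3.34-fold), larger than that of 99.2% of all genes. On single arrays the level was 6669 and 6452 in STZ+MENS sample 1, and 16035 and 30296 in sample 2. STZ+MENS against STZ differed by 0.20 ± 0.54, STZ+MENS against control by 0.44 ± 0.54 and STZ against control by 0.25 ± 0.54, none past the threshold (limma adjusted p 0.725 to 0.860). Over the 6 samples, Cd5l and Marco correlated at r = 0.86 as a description of samples that share groups and 1 normalization.

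Timd4, a receptor for phosphatidylserine on dying cells, was at 1139 and 1554 in STZ+MENS, 1184 and 743 in STZ, and 1270 and 1020 in control samples. STZ sample 2 was the lowest, and the groups overlapped. STZ+MENS against STZ differed by 0.44 ± 0.26 and STZ against control by -0.26 ± 0.26, with limma adjusted p of 0.337 and 0.661, and STZ+MENS against control by 0.18 ± 0.26 (0.772). Vsig4, a receptor for complement C3 fragments, had low intensities, where the offset understates differences. It was at 142 and 349 in STZ+MENS, 424 and 302 in STZ, and 594 and 179 in control samples. Control sample 1 was 2.91-fold above control sample 2 on the log2 scale with the offset, a wider gap than that of 99.3% of genes. Vsig4 differed by -0.62 ± 0.54 in STZ+MENS against STZ (limma adjusted p = 0.512), in STZ+MENS against control by -0.51 ± 0.54 (0.679), and in STZ against control by 0.11 ± 0.54 (limma adjusted p = 0.940).

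Adgre1 encodes F4/80, the adhesion receptor used to stain mouse macrophages. Its intensity was 939 and 1192 in STZ+MENS, 1589 and 1326 in STZ, and 1846 and 1621 in control samples. Both STZ+MENS samples lay below both STZ samples, which lay below both controls. STZ+MENS against control differed by -0.69 ± 0.18 (95% interval -1.12 to -0.25), with limma adjusted p = 0.150. STZ+MENS against STZ differed by -0.44 ± 0.18 (limma adjusted p = 0.193) and STZ against control by -0.25 ± 0.18 (limma adjusted p = 0.538). The difference from control was -0.85 to -0.53 when single samples were left out. All 4 STZ+MENS arrays, at 905 to 1339, lay below the 4 control arrays, at 1550 to 1931, but overlapped the 4 STZ arrays, at 1323 to 1725. Adgre1 and Clec4f thus differed in opposite directions in both comparisons of STZ+MENS, and correlated at r = -0.50 over the 6 samples.

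Cd68, a lysosomal glycoprotein of phagocytes, was at 557 and 785 in STZ+MENS, 662 and 637 in STZ, and 983 and 615 in control samples. Control sample 1 stood above the other 5 samples, and the groups overlapped. Csf1r, the receptor for Csf1 and Il34, was at 5067 and 7963 in STZ+MENS, 5781 and 4975 in STZ, and 6992 and 4841 in control samples. For both genes, differences between groups ranged from -0.25 to 0.24, with standard errors of 0.26 for Cd68 and 0.28 for Csf1r and limma adjusted p of 0.624 to 0.953. For Csf1r the 95% interval of STZ against control was -0.79 to 0.56, so shifts within that range were not excluded.

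C1qa, the A chain of C1q, was at 30368 and 44840 in STZ+MENS, 34555 and 31850 in STZ, and 36019 and 32229 in control samples. Its largest group difference was 0.15 ± 0.21, STZ+MENS against STZ (limma adjusted p = 0.696), with a 95% interval of -0.36 to 0.66. C1qb, the B chain, was at 1851 and 4005 in STZ+MENS, 3007 and 2190 in STZ, and 4179 and 2339 in control samples. Its STZ+MENS samples were 2.13-fold apart and its control samples 1.78-fold. C1qb differed by 0.09 ± 0.43 in STZ+MENS against STZ, in STZ+MENS against control by -0.19 ± 0.43 and in STZ against control by -0.28 ± 0.43 (limma adjusted p = 0.922, 0.856 and 0.788). C1qc, the third chain and not 1 of the 10, was at 1840 and 2978 in STZ+MENS, 3211 and 2051 in STZ, and 3570 and 2549 in control samples, with limma adjusted p of 0.612 to 0.833.

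**Figure D2:**
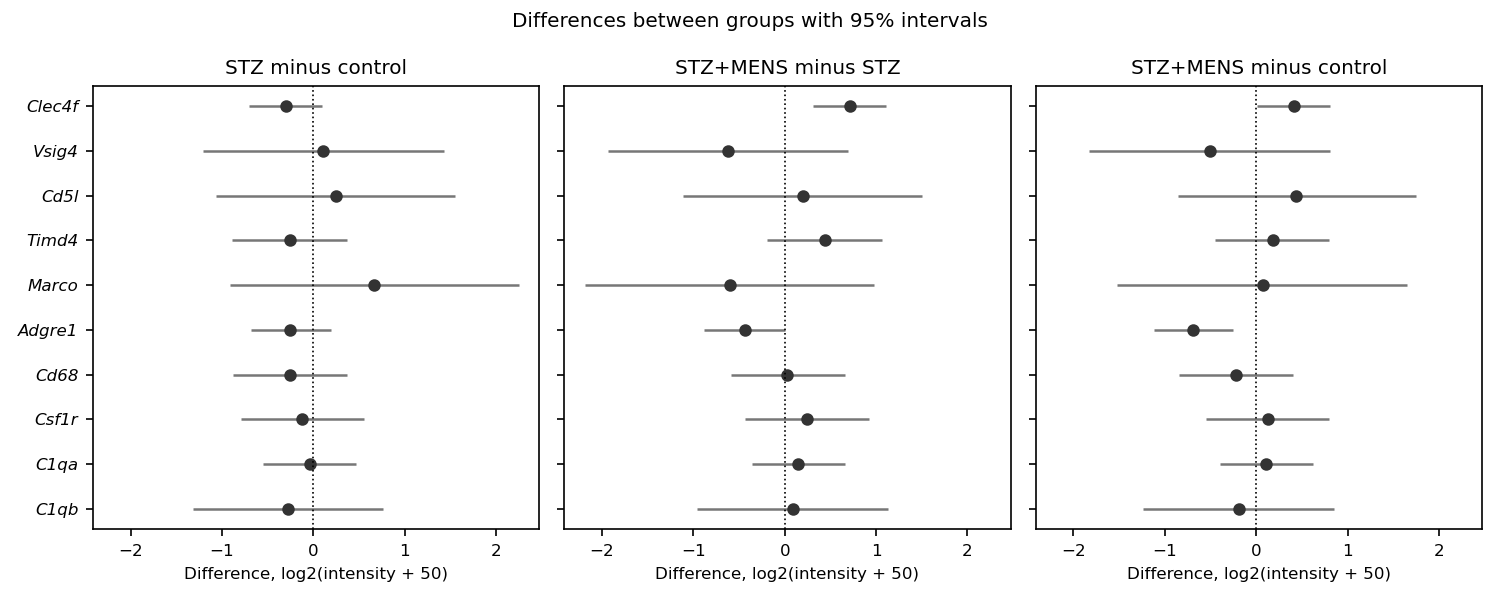
Log2 differences of the 10 markers (points) with 95% intervals from limma (lines), with a panel for each comparison. Clec4f lies above 0 in both comparisons of STZ+MENS and Adgre1 below 0, and the other intervals all include 0.

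At an unadjusted p under 0.05, 0 of the 10 stood in STZ against control, where 17.0% of all genes did. In STZ+MENS against STZ there were 2, Clec4f higher and Adgre1 lower, where 25.4% of all genes stood past that level. In STZ+MENS against control the same 2 genes did, and 18.0% of all genes. The shares of the 10 were near or below the background. The count of 0 was 1 without either STZ+MENS sample. The count of 2 against STZ was 4 when STZ+MENS sample 2 was left out, and 1 when STZ sample 2 or either control sample was. The count of 2 against control was 0 without control sample 1 and 3 without STZ+MENS sample 1. Samples did not overlap for 3 of the 10 in STZ against control (Marco higher, Clec4f and Adgre1 lower), against 52.1% of all genes (24.0% higher and 28.2% lower). They did not overlap for 2 in STZ+MENS against STZ, Clec4f higher and Adgre1 lower, against 57.9% of genes (34.0% higher and 23.9% lower). The same 2 did not overlap in STZ+MENS against control, against 48.6% (25.6% higher and 23.0% lower). Over all genes, limma called 0.00564%, 0% and 0.00564% of genes in STZ against control, STZ+MENS against STZ and STZ+MENS against control. The median log2 difference of the 10 was -0.18 in STZ against control, beside -0.02 for all genes. It was 0.12 in STZ+MENS against STZ, beside 0.06 for all genes, and 0.09 in STZ+MENS against control, beside 0.02. These medians turned on single samples. The median of STZ against control was 0.10 without control sample 1 and -0.39 without control sample 2. That of STZ+MENS against STZ was -0.33 when STZ+MENS sample 2 was left out, and 0.52 when it was sample 1. That of STZ+MENS against control was -0.44 when STZ+MENS sample 2 was left out, 0.37 when STZ+MENS sample 1 was, and -0.05 when control sample 2 was. Leaving out Marco and Cd5l, chosen after seeing the data, gave -0.25, 0.12 and -0.04 in STZ against control, STZ+MENS against STZ and STZ+MENS against control.

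The median SD between the samples of a group was 0.425 in STZ+MENS for the 10 markers, beside 0.153 for all genes. In STZ it was 0.256 beside 0.122, and in control 0.216 beside 0.127. Between the arrays of a sample the median SD was 0.170 for the markers and 0.136 for all genes. All 10 markers were higher in STZ+MENS sample 2 than in STZ+MENS sample 1, by a median of 0.60, where 49.3% of all genes were. The gap ran from 0.03 for Clec4f to 2.14 for Marco, and the arrays of Clec4f and Timd4 overlapped between these samples. In control 9 of 10 were higher in sample 1, all but Marco, and in STZ 8 of 10, all but Marco and Cd5l. A gap above 1 on the log2 scale was seen in STZ+MENS for 3 markers, Marco, Cd5l and C1qb, and for 4.10% of all genes.

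**Figure D3:**
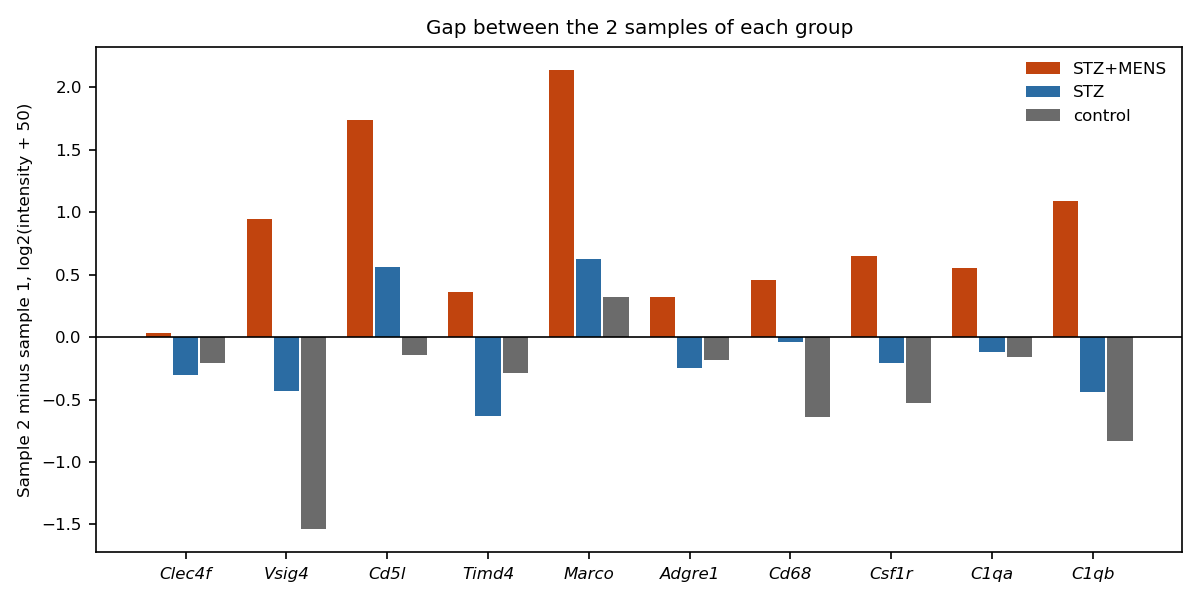
Difference between sample 2 and sample 1 of each group in log2(intensity + 50) for the 10 markers (bars from 0). All STZ+MENS bars point up, led by Marco at 2.14 and Cd5l at 1.74, and most STZ and control bars point down.

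Other measures moved with this split of the STZ+MENS samples, and their part in it was not tested. The 2 arrays of STZ+MENS sample 2 were the furthest apart of the 6 samples, with a median gap over all genes of 0.195 on the log2 scale against 0.071 to 0.165 elsewhere. For 7 of the 10 markers the largest gap between arrays of a sample was in this sample. The markers' median gap between its arrays was 0.473, against 0.051 to 0.209 in the other samples. Among erythroid markers 2 of 6 were measured, and both were lower in sample 2: their summed intensity was 104836 and 9330 in STZ+MENS, 32621 and 55363 in STZ, and 79641 and 95699 in control samples. All 4 measured B cell markers of 5 were lower in sample 2, with sums of 18145 and 10673 in STZ+MENS, 10951 and 10690 in STZ, and 10677 and 11034 in control. Of 7 measured endothelial markers of 8, 6 were lower in sample 2, with sums of 95723 and 74280 in STZ+MENS, 71891 and 65807 in STZ, and 85322 and 73906 in control. In control 6 of these 7 were lower in sample 2 as well (median gap -0.21), and in STZ 3 were (0.21). No measured marker of these 3 lists averaged under an intensity of 50. Each of these sums was led by 1 gene. In STZ+MENS, Alas2 was at 103783 and 9156 and the other erythroid marker, Slc4a1, at 1053 and 174. Cd22 led the B cell sum, at 13668 and 8574, and Clec4g the endothelial sum, at 52688 and 39528. Stellate cell markers were lower in sample 2 for 5 of 7, with sums of 204579 and 139366 in STZ+MENS, 159970 and 163183 in STZ, and 183502 and 147634 in control. This direction was not particular to STZ+MENS, since 6 of the 7 were lower in sample 2 in STZ and in control. Their median gaps were -0.29, -0.31 and -0.32 in STZ+MENS, STZ and control. Dcn led the stellate sums, at 131909 and 95968 in STZ+MENS. Cholangiocyte markers ran the same way as the 10 markers in each group. Of 6, 5 were higher in STZ+MENS sample 2 (median gap 0.21), 5 were higher in STZ sample 1 (median gap -0.41) and 4 were higher in control sample 1 (median gap -0.25). The cholangiocyte sums were higher in sample 1 in every group, so they ran against the markers in STZ+MENS only. They were at 22213 and 16996 in STZ+MENS, 24495 and 18362 in STZ, and 16208 and 15810 in control. Spp1 led these sums, at 17928 and 10571 in STZ+MENS. Pan-myeloid and leukocyte genes were higher in STZ+MENS sample 2 for 10 of 13 (median gap 0.13). Monocyte-derived and lipid-associated macrophage genes were for 9 of 13 (0.04), and antigen presentation genes for 3 of 3 (0.45). Macrophage activation genes were for 5 of 13 (-0.01), and macrophage ligands and transcription factors for 5 of 13 (-0.13).

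The markers fell into loose sets over the 6 samples. C1qb correlated with Cd68 and Csf1r at r = 0.92 each and with C1qa at 0.84, and C1qa with Csf1r at 0.93. Each of Csf1r, C1qa and C1qb followed the mean of the other 9 at r of 0.91 to 0.97, whereas Clec4f (0.19), Adgre1 (0.24) and Marco (0.37) did so least. Clec4f correlated with Timd4 at 0.81. These values describe 6 samples that share groups and normalization. Among 5970 other genes with a mean intensity of at least 200 and an SD of at least 0.3, the 6 most like the mean profile of the markers over the 6 samples were Mrap2 (r = 0.960), Clec4n (0.954), H2bc6 (0.934), Adamts6 (0.926), Dusp10 (0.925) and Ubl4a (0.924). Clec4n, which encodes the myeloid lectin receptor Dectin-2, was at 1025 and 2020 in STZ+MENS, 1381 and 1193 in STZ, and 1563 and 1333 in control samples.

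Other macrophage genes were read from lists chosen beside the markers, of which limma called 0 members over all genes in each comparison. Counts below are at an unadjusted p under 0.05 and are read against all genes, of which 12.6% were higher and 12.8% lower in STZ+MENS against STZ, 8.48% and 8.49% in STZ against control, and 8.82% and 9.18% in STZ+MENS against control. Of 13 measured macrophage ligand and transcription factor genes, 4 were higher and 4 lower in STZ+MENS against STZ, with a median of 0.07. Spi1, which encodes PU.1, was at 14627 and 13094 in STZ+MENS, 6247 and 6571 in STZ, and 8086 and 7933 in control samples. Both STZ+MENS samples lay above all others, and the samples of each group lay close together. The difference was 1.10 ± 0.14 against STZ (limma adjusted p = 0.0595) and 0.78 ± 0.14 against control (limma adjusted p = 0.114). The other 3 higher genes were Csf1 (0.46 ± 0.13), the growth factor that acts through Csf1r, Irf8 (0.73 ± 0.15), a myeloid transcription factor, and Spic (0.80 ± 0.25), a factor of red pulp and iron-handling macrophages. Il34, the other Csf1r ligand, differed by 0.07 ± 0.15. Nr1h3 differed by -0.25 ± 0.21 in STZ+MENS against STZ, by -0.32 ± 0.21 in STZ+MENS against control and by -0.07 ± 0.21 in STZ against control. Its limma adjusted p was 0.481 to 0.907.

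The 4 lower genes were Id1, Id3, Maf and Smad4. Smad4, a signal carrier of the TGF-beta family, was at 7750 and 8434 in STZ+MENS, 14063 and 13651 in STZ, and 12769 and 11028 in control samples. Both STZ+MENS samples lay below the other 4 (-0.78 ± 0.15 against STZ, limma adjusted p = 0.0631). Id3, an inhibitor of helix-loop-helix factors that Kupffer cells need, was at 13047 and 11761 in STZ+MENS, 27912 and 24719 in STZ, and 7203 and 7312 in control samples. The groups did not overlap: STZ lay highest and control lowest, with -1.09 ± 0.14 for STZ+MENS against STZ and 1.85 ± 0.14 for STZ against control (limma adjusted p = 0.0595 and 0.0648). Id1 had the same order, at 4862 and 6831 in STZ+MENS, 17774 and 12309 in STZ, and 1953 and 1697 in control samples. Id1, Id3 and Smad4 are expressed in many liver cells, so these values are not those of macrophages alone. Maf differed by -0.77 ± 0.17 in STZ+MENS against STZ and by 0.88 ± 0.17 in STZ against control. In STZ against control 3 of the 13 were higher, Id1, Id3 and Maf, and 1 lower, Irf8 (-0.51 ± 0.15). In STZ+MENS against control 4 were higher, Spi1, Spic, Id1 and Id3, and 1 lower, Smad4, with a list median of 0.21.

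Of 15 measured further Kupffer cell genes, 1 was higher and 2 lower in STZ against control, with a median of -0.11. Of the 15, 2 were higher and 0 lower in STZ+MENS against STZ, with a median of 0.01, and in STZ+MENS against control 0 passed in either direction. Cfp, properdin of the alternative complement pathway, was at 17749 and 18354 in STZ+MENS, 11173 and 12573 in STZ, and 19762 and 14460 in control samples. Both STZ samples lay lowest. It differed by 0.61 ± 0.19 in STZ+MENS against STZ and by -0.52 ± 0.19 in STZ against control (limma adjusted p = 0.122 and 0.249). Slc11a1, a metal transporter of phagosomes, differed by 0.41 ± 0.15 in STZ+MENS against STZ. Axl, a receptor for the uptake of dying cells, differed by -0.52 ± 0.20 in STZ against control, and Cxcl13, a B cell chemokine, by 0.49 ± 0.16. In this list 10 of the 15 were higher in STZ+MENS sample 2 than in sample 1, with a median gap of 0.14, against 0.60 for the 10 markers.

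Monocyte-derived and lipid-associated macrophage genes included 5 of 13 lower and 0 higher in STZ against control, with a median of -0.23. Itgam, the CD11b integrin chain, was at 1163 and 1209 in STZ+MENS, 1185 and 878 in STZ, and 1827 and 2009 in control samples. Both control samples lay above the other 4, with differences of -0.88 ± 0.18 for STZ and -0.67 ± 0.18 for STZ+MENS (limma adjusted p = 0.127 and 0.152). Gpnmb, a glycoprotein of lipid-laden macrophages, differed by -1.13 ± 0.32 in STZ against control. The other 3 were Cx3cr1 (-0.38 ± 0.13), Trem2 (-0.82 ± 0.26) and Lgals3 (-0.47 ± 0.19). For STZ+MENS against STZ, 2 were higher, Ccr2 and Cx3cr1, and 2 lower, Cd9 and Ccl2, with a list median of 0.15. For STZ+MENS against control, 1 was higher, Ccr2, and 2 lower, Itgam and Trem2, with a list median of -0.35. Ccr2, the chemokine receptor of inflammatory monocytes, was at 3672 and 3498 in STZ+MENS, 2098 and 1845 in STZ, and 2211 and 1465 in control samples. It differed by 0.84 ± 0.19 against STZ and by 0.93 ± 0.19 against control (limma adjusted p = 0.0751 and 0.125).

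Of 13 measured macrophage activation genes, 1 was lower in STZ against control and 1 higher in STZ+MENS against STZ, and in both it was Il1b. Il1b, which encodes the cytokine interleukin-1 beta, was at 8465 and 6022 in STZ+MENS, 3870 and 4275 in STZ, and 8407 and 9033 in control samples. STZ lay lowest, with -1.10 ± 0.20 against control and 0.81 ± 0.20 for STZ+MENS against STZ (limma adjusted p = 0.110 and 0.0835). The next smallest p-values were those of Tnf, Cxcl2 and Cd86. Tnf, the cytokine tumour necrosis factor, differed by -0.70 ± 0.36 in STZ against control, and Cxcl2, a neutrophil chemokine, by -0.56 ± 0.28. Cd86, a co-stimulatory ligand, differed by 0.25 ± 0.14 in STZ+MENS against STZ, with 0 of these 3 at an unadjusted p under 0.05. Of 13 measured myeloid and leukocyte genes, 3 were lower in STZ against control, Fcgr1 (-1.13 ± 0.28), Aif1 (-0.67 ± 0.16) and Cd52 (-0.57 ± 0.21), with a list median of -0.03. There were 3 higher in STZ+MENS against STZ, Aif1 (0.46 ± 0.16), Cd52 (0.57 ± 0.21) and Coro1a (0.90 ± 0.20). In STZ+MENS against control 1 was higher, Coro1a (0.82 ± 0.20), and 1 lower, Fcgr1 (-1.38 ± 0.28). Fcgr1 had low intensities, at 54 and 98 in STZ+MENS, 137 and 65 in STZ, and 251 and 293 in control samples. Ptprc, the CD45 antigen of all leukocytes, was at 1726 and 1894 in STZ+MENS, 1638 and 1689 in STZ, and 1734 and 1938 in control samples, and differed by at most 0.14 in size.

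**Figure D4:**
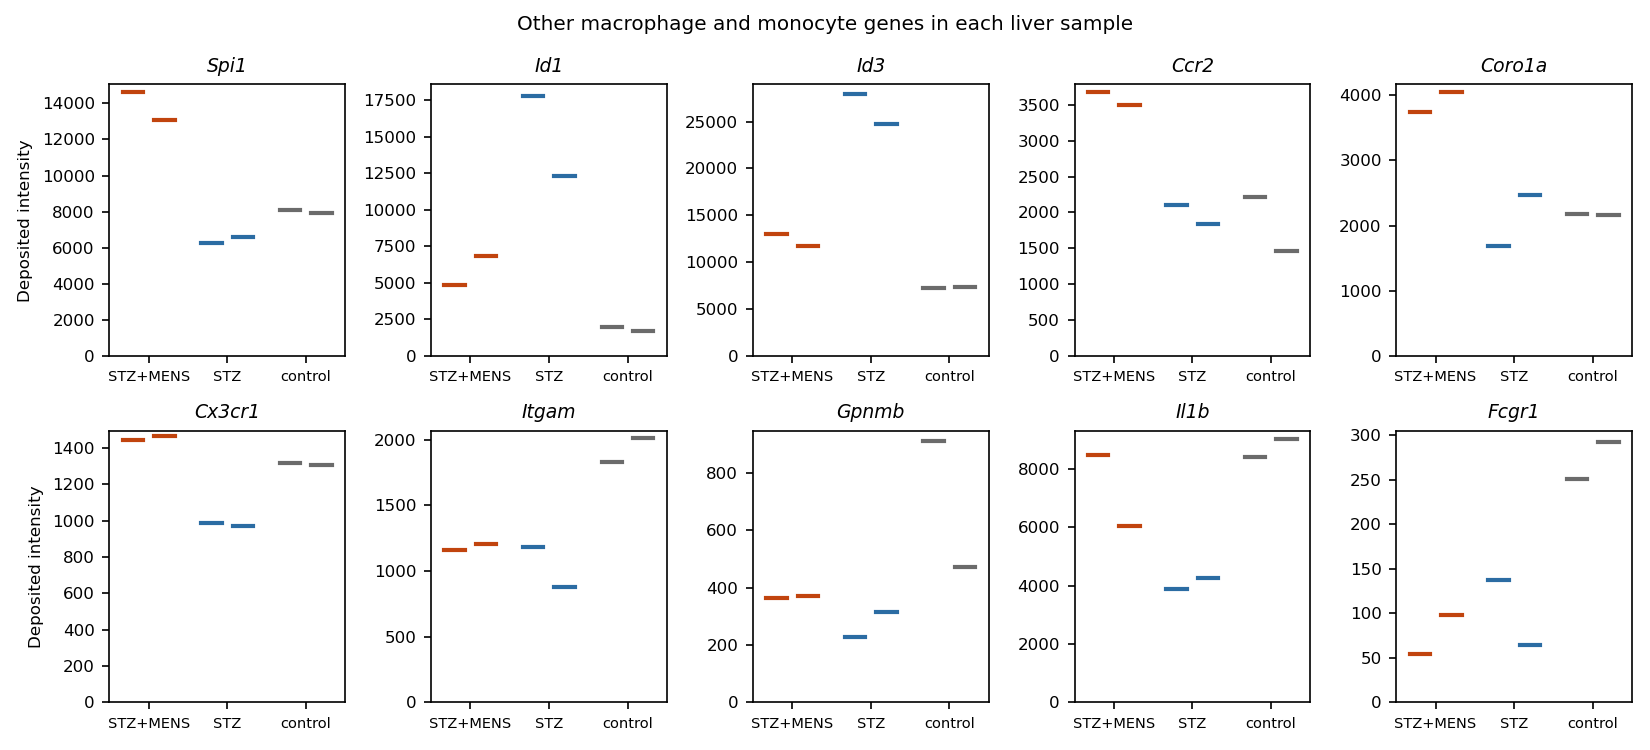
Deposited intensity (linear axis from 0) of 10 other macrophage and monocyte genes in STZ+MENS, STZ and control livers. Bars are samples, with sample 1 left of sample 2. Spi1 and Ccr2 lie highest in STZ+MENS, Id1 and Id3 in STZ, and Itgam and Fcgr1 in control.

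Of 5 measured complement genes that act with C1q, 2 were lower in STZ against control. C2, the protease of the classical pathway, differed by -0.66 ± 0.21, and Serping1, the C1 inhibitor, by -0.40 ± 0.15 (limma adjusted p = 0.217 and 0.267). C2 differed by 0.55 ± 0.21 in STZ+MENS against STZ and C1qbp, a mitochondrial protein that binds C1q, by -1.65 ± 0.64, with C1qbp at 1115 and 5272 in STZ+MENS, 7966 and 7510 in STZ, and 7235 and 6220 in control samples. These genes are made by hepatocytes and other cells as well. Of 3 measured antigen presentation genes of 7 listed, 0 stood past that level in any comparison, and Cd74, the invariant chain, was at 1676 and 3452 in STZ+MENS, 3092 and 1450 in STZ, and 2602 and 2798 in control samples. H2-Aa, a class II chain, was at 12719 and 17443 in STZ+MENS, 17443 and 12054 in STZ, and 9375 and 19149 in control samples. Ciita, the class II transactivator, was at 278 and 317 in STZ+MENS, 284 and 217 in STZ, and 247 and 350 in control samples. For all 3 genes the groups overlapped.

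Markers of other leukocytes gave these sums. The 7 measured neutrophil markers summed to 3558 and 3381 in STZ+MENS, 3181 and 3691 in STZ, and 3392 and 3649 in control samples. This sum was led by Mpo, at 1603 to 2133. Single markers went opposite ways at an unadjusted p under 0.05. Camp was lower than in control in STZ (-0.47 ± 0.15) and STZ+MENS (-0.54 ± 0.15), and Retnlg was higher in STZ+MENS than in control (0.39 ± 0.14). Against STZ, 0 passed in STZ+MENS. The 7 T cell markers summed to 6303 and 6548 in STZ+MENS, 5014 and 6100 in STZ, and 7075 and 6480 in control, a sum led by Cd3e, at 2748 to 4312. By gene, 6 of the 7 T cell markers lay higher in STZ+MENS than in STZ (median 0.35), with Cd3g (0.42 ± 0.16) and Cd8a (0.39 ± 0.14) at an unadjusted p under 0.05. Against control 6 of the 7 lay higher in STZ+MENS (median 0.19), with Cd3d (0.72 ± 0.20) at that level. In STZ against control the median was 0.01, with Cd3d higher (0.94 ± 0.20) and Cd3e lower (-0.49 ± 0.16). The 6 dendritic cell markers summed to 2248 and 2517 in STZ+MENS, 2186 and 2222 in STZ, and 1878 and 2046 in control. Zbtb46 led that sum, at 1156 to 1651. Siglech was higher in STZ+MENS than in STZ (0.57 ± 0.21) and control (0.56 ± 0.21) at an unadjusted p under 0.05. The 4 NK cell markers summed to 1004 and 1084 in STZ+MENS, 693 and 976 in STZ, and 904 and 974 in control. The part of these leukocyte markers in the values of the 10 markers was not tested.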

How the data were processed

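The authors deposited linear intensities for 12 arrays (Phalanx Mouse OneArray, Cy5) of TRIzol-extracted liver RNA, per the labels' protocols. The submitters' processing notes list limma 3.30.7 with no role, and how background and normalization were done is not stated there. Sorted values nearly coincided between arrays (medians 768.89 to 770.33), so no further normalization was applied. The 44 to 52 negative values on each array became 0, and 50 was added before log2, which understates changes of dim genes. Among 26423 probes, 20377 carried a single symbol, 0 carried more, and 6046 had no name in the table used. A RefSeq table (GRCm38.p6) updated names only: 18213 were current, 2126 matched as synonyms and 38 stayed as on the platform. A gene's brightest probe was used.

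Array pairs were averaged on the log2 scale. All 3 groups entered 1 fit with limma 3.58.1 (lmFit, eBayes) in R 4.3.3, two-sided, with Benjamini-Hochberg adjustment over 17742 genes at 0.05. The fit was tested on simulated data. Dim genes were kept, and all 10 markers exceed a mean of 100. Alternatives varied the offset, floor, filter, probe rule, normalization, prior, arrays, blocks and samples. All 10 markers were named, and from each of 7 other lists up to 4 genes with the smallest p over the comparisons. Csf1, Il34, Nr1h3, Irf8, Spic, Maf, Trem2, Lgals3, Cd9, Ccl2 and Ptprc were named after their values were seen. The markers and lists were chosen with earlier results of these data known.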

Additional observations from a re-analysis of the deposited data

How the results depend on the processing

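Each marker difference was recomputed under 21 alternatives, giving 630 values, of which 592 kept direction and side of the threshold, 33 changed sign and 5 newly passed it. The second brightest probe gave no value for the markers, which have 1 probe each. The mean of all probes, the filter, 12 arrays, only 2 groups, the blocks and the trended prior cannot change a marker's difference, only its p. The same holds for leaving out a sample of the group not compared. The share of values that kept direction was therefore partly fixed beforehand and does not measure how firm a difference is. With 2 samples per group, a group left with 1 sample is assumed to vary like the others, and the cause of each change below was not tested. Genes passing limma's adjusted threshold in STZ against control numbered 1, but 2 with offset 1 or the second brightest probe, 0 with offset 200, a floor of 50 or second arrays, 4 with first arrays, 181 with only these 2 groups, and 1204 with 12 arrays and the sample as a random block. Leaving out single samples gave 0 to 181. For STZ+MENS against STZ the count was 0, with 3 for the second brightest probe, 30 for second arrays, 3079 for 12 arrays, and 0 to 1759 without single samples. For STZ+MENS against control it was 1, with 2 for offset 1 or only these 2 groups, 0 for offset 200, the floor or second arrays, 3 for first arrays, 1336 for 12 arrays, and 0 to 12 without single samples. The sample numbers did not pair samples (correlations of same-numbered deviations -0.031, 0.005 and -0.07). A replicate block on sample number left 1, 0 and 1 genes, as without it. A replicate block on array number gave 1024, 2741 and 1051 genes in STZ against control, STZ+MENS against STZ and STZ+MENS against control. Without single samples the median of the markers spanned -0.39 to 0.10 in STZ against control, -0.33 to 0.52 in STZ+MENS against STZ and -0.44 to 0.37 in STZ+MENS against control. Markers at an unadjusted p under 0.05 numbered 0, 2 and 2 in those comparisons. In STZ against control 1 did with only these 2 groups, and it was Marco. In STZ+MENS against STZ 1 did with offset 1 or 16, the floor, the filter at 100, second arrays, only 2 groups, the sample-number replicate block or a trended prior, and 1 to 4 without single samples. In STZ+MENS against control 1 did with offset 1 or 16, 12 arrays, second arrays or either replicate block, and 0 to 3 without single samples. Clec4f in STZ+MENS against STZ passed with 12 arrays (limma adjusted p = 0.0267) and with the array-number replicate block (0.038), over a range of 0.0267 to 0.274. Adgre1 in STZ+MENS against control passed in the same fits (0.0316 and 0.0455), over a range of 0.0316 to 0.492. Those 2 fits enter the 12 arrays as observations, with 1 correlation between arrays of a sample for all genes. Passing in them adds no samples, and n stays 2 per group. On first arrays Vsig4 in STZ against control was -0.07, Cd68 in STZ+MENS against STZ -0.10 and Marco in STZ+MENS against control -0.04. On second arrays C1qa in STZ against control was 0.04. Without single samples, STZ against control spanned -0.66 to 0.88 for Vsig4, -0.04 to 0.53 for Cd5l, -0.58 to 0.06 for Timd4, -0.57 to 0.06 for Cd68, -0.38 to 0.15 for Csf1r, -0.12 to 0.04 for C1qa and -0.70 to 0.14 for C1qb. STZ+MENS against STZ spanned -0.67 to 1.07 for Cd5l, -1.67 to 0.46 for Marco, -0.20 to 0.26 for Cd68, -0.08 to 0.57 for Csf1r, -0.13 to 0.43 for C1qa and -0.46 to 0.63 for C1qb. STZ+MENS against control spanned -1.28 to 0.26 for Vsig4, -0.43 to 1.31 for Cd5l, -0.00 to 0.36 for Timd4, -1.0 to 1.13 for Marco, -0.54 to 0.10 for Cd68, -0.20 to 0.45 for Csf1r, -0.17 to 0.39 for C1qa and -0.74 to 0.35 for C1qb.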
